A study of Homo sapiens with 4 samples.

Results

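Interferon-stimulated genes are the antiviral and regulatory genes that a cell switches on after interferon binds its receptors. The set described here holds 45 such genes given by name, and 44 of them had a probe set that named only that gene, out of 19775 genes so measured. STAT2 was not analysed here. Where several probe sets named a gene, the one brightest on average stands for it. The genes were followed in HT29 and Colo205, which are established human colon cancer cell lines, on 4 Affymetrix arrays of total RNA. The parental lines (HT29 parental and Colo205 parental) were each compared with a derivative (HT29RC and Colo205RC) that had been selected in rising amounts of PLX4720, an inhibitor of the kinase BRAF, until it was resistant. All cells were grown in medium with 10% serum, and the derivatives were kept free of PLX4720 for 24 hours before harvest. The doses used for selection were not given in the labels, the design text calls the derivatives clones, and each line and state is represented by 1 array. The question was how expression in each resistant derivative differed from that in its parent. With 1 array on each side, a difference within a line has no replicate error and no test.

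In the textbook pathway, type I and type III interferons act through receptor-bound JAK kinases that phosphorylate STAT proteins. A complex of STAT proteins with IRF9 then binds a promoter element built from repeats of GAAA, and the genes behind that element encode proteins that bind viral RNA, degrade it, block membrane fusion or conjugate ISG15 to other proteins. Interferon gamma acts through STAT dimers at another element, and genes such as IRF1 and GBP1 are best known as targets of that branch. Many tumour lines keep a low level of these genes without added interferon.

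Promoter sequences are shown for some of the genes that differed 2-fold or more in a line, to let a reader see the interferon response element beside the measurements. They come from RefSeq for build GRCh38.p14. The table held windows of 250 bases before to 50 bases after a transcript start for 35 of the 44 genes, with more than 1 start for some. The core of the interferon response element, searched on both strands as GAAA, any 2 bases and GAAA again, lay in a window of 24 of the 35 genes (68.6%), against 4.38% of all 27305 genes in the table. The motif TTCNNNGAA, which reads the same on both strands and is the core bound by STAT dimers, lay in a window of 11 of the 35 (31.4%), against 9.38% of all. Some windows overlap, and with each position counted once it matched at 12 positions, of which 5 shared bases with a match to the response element core. PARP9 and DTX3L, whose windows overlap, share 1 match to that core. Of the 19 genes with a window that were lower in resistant HT29 and higher in resistant Colo205, by any amount, 15 held the response element core, as did 9 of the other 16. The 15 include HERC5 and RSAD2, and the 9 include IFI44L, which read at most 4.83 on any array, so their signs are uncertain. Of the 10 genes with a window that differed 2-fold or more in either line, 6 held the core. CMPK2, HERC6 and IFI16, which are not printed, and IRF9 did not. The 160 bases just before the most upstream listed start follow, 5′ to 3′ on the strand of the gene, with the response element core or its reverse complement in capitals. The first 4 genes were lower in resistant HT29 and higher in resistant Colo205. GBP1 was lower in both, and the window of IRF9, which was lower in HT29 and higher in Colo205, holds no match to it.
IFIT1 (chr10:89392463-89392622, plus strand): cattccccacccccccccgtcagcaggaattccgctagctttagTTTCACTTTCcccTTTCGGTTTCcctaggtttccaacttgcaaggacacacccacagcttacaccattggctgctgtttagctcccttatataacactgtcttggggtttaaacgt
IFI27 (chr14:94110576-94110735, plus strand): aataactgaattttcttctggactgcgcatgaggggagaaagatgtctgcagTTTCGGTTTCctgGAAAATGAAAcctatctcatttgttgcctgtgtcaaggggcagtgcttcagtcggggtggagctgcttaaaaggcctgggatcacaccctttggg
IFI44 (chr1:78649629-78649788, plus strand): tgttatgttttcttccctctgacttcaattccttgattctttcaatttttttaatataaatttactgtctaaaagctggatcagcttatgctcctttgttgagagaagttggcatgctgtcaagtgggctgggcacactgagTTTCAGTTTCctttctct
IFIT3 (chr10:89327837-89327996, plus strand): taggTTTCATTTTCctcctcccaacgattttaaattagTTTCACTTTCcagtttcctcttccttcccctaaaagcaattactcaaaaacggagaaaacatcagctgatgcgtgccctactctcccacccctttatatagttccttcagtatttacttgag
GBP1 (chr1:89065209-89065368, minus strand): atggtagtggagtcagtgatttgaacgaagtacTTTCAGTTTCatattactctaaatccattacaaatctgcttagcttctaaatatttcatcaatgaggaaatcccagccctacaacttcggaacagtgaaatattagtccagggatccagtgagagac
IRF9 (chr14:24161105-24161264, plus strand): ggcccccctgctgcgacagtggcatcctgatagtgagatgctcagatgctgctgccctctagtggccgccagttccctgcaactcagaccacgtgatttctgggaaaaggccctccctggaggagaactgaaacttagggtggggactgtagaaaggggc
In IFIT1 the matches began 116 and 103 bases before the start, in IFI27 108 and 95, in IFIT3 156 and 122, in IFI44 18 and in GBP1 127.

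Before the results, the arrays themselves were compared. The median log2 reading differed by at most 0.049 between any pair of arrays. The 24 poly-A spike control probe sets, which read bacterial RNA added before labelling, were all lower on the resistant array in both lines, with a median difference of -0.43 in HT29 and -0.72 in Colo205. Their part in the differences below was not tested. All 12 colon epithelial markers listed were above the filter value of 5.73 on at least 1 array, and EPCAM lay between 13.75 and 13.96 on the 4 arrays. Other markers of that list moved with the resistant state: 5 of the 12 were 2-fold or more higher in resistant HT29 (KRT19, KRT20, CDX2, GPA33 and CDH17) and 2 in resistant Colo205 (GPA33 and CDH17), with none lower. The widest shift was that of CDH17, an intestinal cadherin, from 5.30 to 11.24 in HT29. KRT20 read 12.69 in the HT29 parent and 4.79 in the Colo205 parent. The part of these shifts in the differences below was not tested. Of 10 measured leukocyte markers 4 passed that value, among them LYZ, while the defining gene PTPRC read at most 4.02. The filter value is the median reading of the whole table, and genes whose highest reading lay below it were left out of counts, which kept 13651 genes. Of the 44 interferon-stimulated genes 40 passed. The 4 that did not were HERC5, RSAD2, TRIM22 and IFI44L, with readings from 3.71 to 4.83 on all arrays. Another 12 passed although at least 1 of their readings lay below the value. Such a gene can have passed only because it was high on another array, so the size of its difference is not exact.

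At 2-fold, more genes of the set were lower than higher in resistant HT29, and more were higher than lower in resistant Colo205. In resistant HT29, 6 of the 40 genes were 2-fold or more lower (15%, against 1.72% of all genes kept) and 2 were 2-fold or more higher (5%, against 3.42%). In resistant Colo205, 4 were 2-fold or more higher (10%, against 0.908%) and 2 were 2-fold or more lower (5%, against 2.51%). The median difference over all 44 genes was -0.35 in HT29 and 0.17 in Colo205, where the median of the 13651 genes was -0.01 and -0.02. With each array centred on its own median, 7 genes were 2-fold lower in HT29 (17.5%, against 1.9% of all genes so centred) and 1 was higher (2.5%, against 3.16%). Among the 28 genes with all readings above the filter value, the HT29 counts were even, with 2 lower (7.14%, against 1.41% of the 11614 such genes) and 2 higher (7.14%, against 2.82%). In Colo205, 2 of the 28 were higher (7.14%, against 0.672%) and 0 lower (0%, against 1.49%). Counted by sign alone, 20 of the 40 had a negative difference in HT29 and a positive one in Colo205 (50%, beside 21.2% of all genes), and 4 had the reverse (10%, beside 22.2%). Both differences were negative for 12 (30%, beside 30.1%) and both positive for 4 (10%, beside 26.3%). The scatter between probe sets of 1 gene had an SD of 0.30 in either line, and 9 of the 20 lay within it in at least 1 line. At 2-fold or more in both lines, 5 of all 13651 genes (0.0366%) read lower in resistant HT29 and also higher in resistant Colo205, and 3 of these 5 belonged to the set: IFIT1, IFI27 and IFI44. Of these 3, only IFI27 read above the filter value on all arrays, so the sizes for IFIT1 and IFI44 are not exact. The other, dim probe set of IFI44 gave -0.22 in Colo205. The set was chosen with earlier results of these data known.

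**Figure D1:**
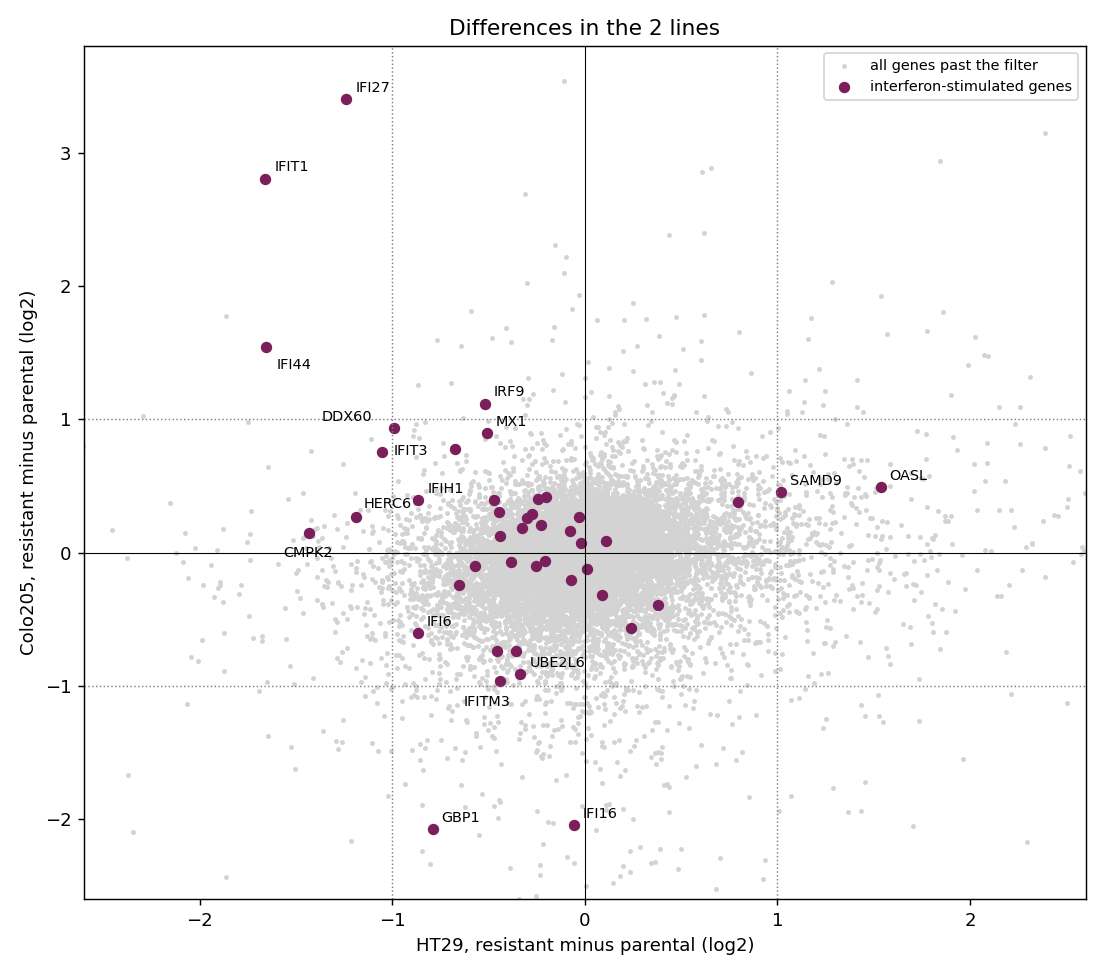
Each point is a gene, placed by its resistant minus parental difference in HT29 (horizontal axis, log2) and in Colo205 (vertical axis, log2). Purple points are the 44 interferon-stimulated genes and grey points all genes past the filter, of which 87 lie outside the axes. Dotted lines mark 2-fold. IFI27, IFIT1 and IFI44 lie in the upper left, GBP1 and IFI16 at the bottom, and OASL and SAMD9 on the right.

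The IFIT genes encode proteins with tetratricopeptide repeats that bind foreign RNA, and all 4 were lower in resistant HT29 and higher in resistant Colo205. IFIT1 read 7.02 in the HT29 parent and 5.36 in its derivative, against 4.45 in the Colo205 parent and 7.26 in its derivative. It was therefore 3.16-fold lower in the HT29 derivative and 6.98-fold higher in the Colo205 derivative, and the reading that was lower in each pair lay below the filter value. IFIT3 read 8.10 and 7.05 in the HT29 pair and 8.43 and 9.19 in the Colo205 pair, with all readings above that value. Its differences were -1.05 and 0.76, and its other probe set gave -0.52 and 0.50. IFIT2 read 6.73 and 6.06 in HT29 and 6.94 and 7.72 in Colo205, which is -0.67 and 0.78. Its other probe set gave 0.07 in HT29, so the direction of IFIT2 in that line depends on the probe set. IFIT5 had the smallest differences of the family, -0.27 and 0.29, within the scatter between probe sets. In the RefSeq gene order these genes lie in 1 cluster on chromosome 10, whose other 536 genes had medians near 0 (0.03 for HT29 and 0.01 for Colo205).

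The largest difference in the set was that of IFI27, a small mitochondrial and membrane protein gene strongly induced by interferon. IFI27 read 11.56 in the HT29 parent and 10.32 in its derivative, against 7.30 in the Colo205 parent and 10.70 in its derivative. It was 2.36-fold lower in the first derivative and 10.6-fold higher in the second. The lines differed widely before selection, and both resistant derivatives lay between the 2 parents. IFI44, an interferon-induced cytoplasmic protein gene, read 8.28 and 6.63 in the HT29 pair and 4.18 and 5.72 in the Colo205 pair. Its differences were -1.65 and 1.54, and both Colo205 readings lay below the filter value, the resistant one by a narrow margin. Its other probe set gave -0.64 and -0.22 at low readings. IFI44L, its neighbour on chromosome 1, lay below the filter value on all arrays, with differences of -0.21 and -0.06. Ranked by the Colo205 difference minus the HT29 difference over 13651 genes, IFI27 (4.64) stood at place 3, IFIT1 (4.46) at place 4 and IFI44 (3.20) at place 12. DDX60, IFIT3, IRF9 and CMPK2 also fell among the first 100 places, which makes 7 of the set.

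**Figure D2:**
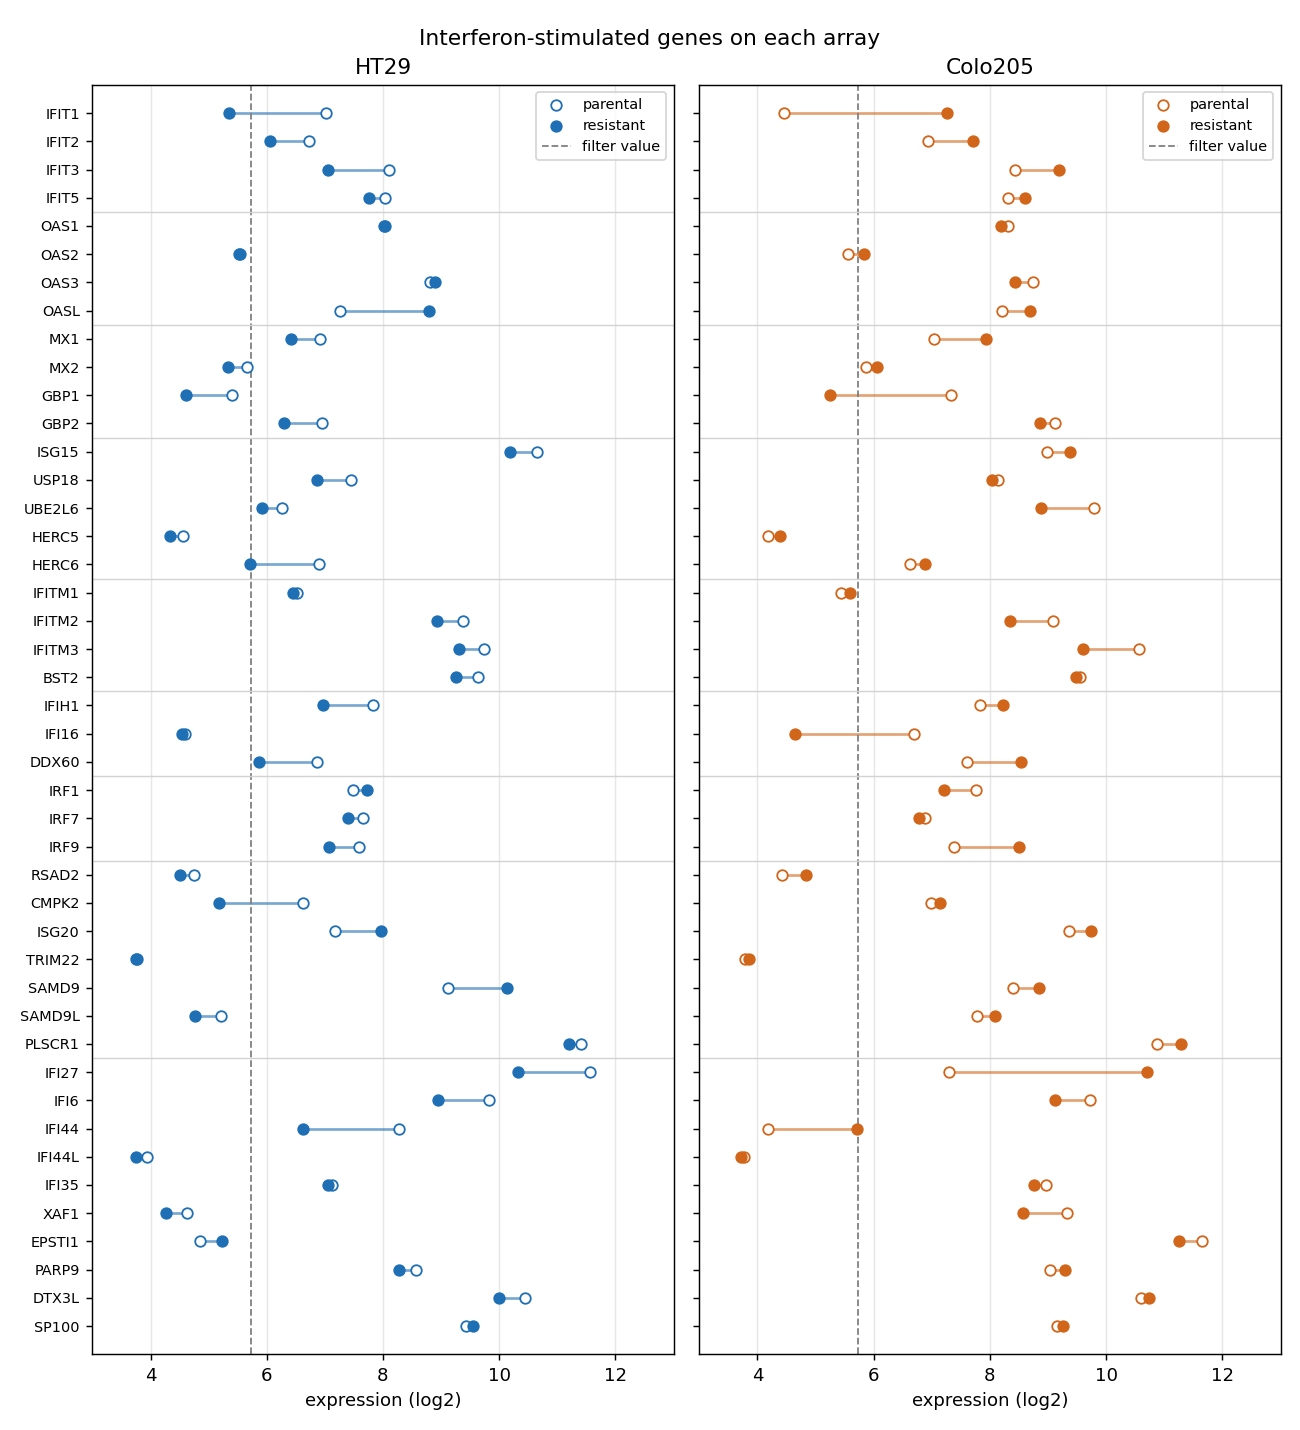
Expression of the 44 genes on each array (horizontal axis, log2), HT29 on the left and Colo205 on the right. Open circles are the parental and filled circles the resistant array, 1 array each, so there are no error bars. The dashed line is the filter value of 5.73, and grey lines separate groups of related genes. The filled circle lies to the left for most genes in HT29 and to the right for IFIT1, IFI27, IFI44, IRF9 and DDX60 in Colo205.

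Among the transcription factors, IRF9 was the 1 member past 2-fold. IRF9, the DNA-binding partner of the STAT proteins in the complex that drives these genes, read 7.59 and 7.08 in the HT29 pair and 7.39 and 8.51 in the Colo205 pair. It was 2.17-fold higher in resistant Colo205, where its difference was 1.12, and its difference in HT29 was -0.52. The parental readings of the lines were near each other and the resistant readings were 1.43 apart. IRF7, which amplifies interferon production, was lower in both lines by less than the scatter between probe sets (-0.25 and -0.10). IRF1, a target of the gamma branch, went the other way from IRF9, with 0.24 in HT29 and -0.57 in Colo205, and its other probe set gave 0.39 and -0.50.

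Of the 3 sensors of nucleic acid, DDX60 and IFIH1 were lower in resistant HT29 and higher in resistant Colo205. DDX60, a helicase that assists RNA sensing, read 6.86 and 5.87 in HT29 and 7.60 and 8.54 in Colo205, a difference just short of 2-fold in each line (-0.99 and 0.94). IFIH1, the sensor of long double-stranded RNA also called MDA5, read 7.83 and 6.96 in HT29 and 7.83 and 8.23 in Colo205. The parents were level for IFIH1, and the derivatives were not. IFI16, a sensor of DNA, read 4.59 and 4.53 in HT29 and 6.69 and 4.64 in Colo205. It was 4.13-fold lower in resistant Colo205, where it came down to the reading of HT29 below the filter value, and its other probe sets in that line gave -1.68 and -1.14.

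MX1 and MX2 are dynamin-like GTPases that trap viral components, and GBP1 and GBP2 are GTPases induced mostly by interferon gamma. MX1 read 6.92 and 6.41 in the HT29 pair and 7.04 and 7.93 in the Colo205 pair, or -0.51 and 0.89. MX2, its neighbour on chromosome 21, had -0.32 and 0.19 at readings near the filter value. GBP1 read 5.40 and 4.61 in HT29 and 7.32 and 5.25 in Colo205. It was 4.20-fold lower in resistant Colo205, where that array read below the filter value, and 2 of its other probe sets there gave -2.08 and -2.31, while a dim one gave -0.06. GBP2, which lies next to GBP1 on chromosome 1, read 6.95 and 6.30 in HT29 and 9.11 and 8.87 in Colo205. Both GBP genes were thus lower on the resistant array of either line, unlike MX1.

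ISG15 is a ubiquitin-like protein, UBE2L6 and the ligase HERC5 attach it, and USP18 removes it. HERC6 lies next to HERC5 on chromosome 4. ISG15 read 10.66 and 10.19 in HT29 and 8.98 and 9.38 in Colo205, with differences of -0.47 and 0.39. HERC6 read 6.90 and 5.71 in HT29 and 6.62 and 6.89 in Colo205, and was 2.28-fold lower in resistant HT29. That resistant HT29 reading stood apart from the others and lay just below the filter value, and the other probe set of HERC6, at readings from 3.37 to 3.67, gave 0.30 in HT29. USP18 was lower by 0.57 in HT29, with a difference of -0.10 in Colo205. UBE2L6 read 6.26 and 5.92 in HT29 and 9.80 and 8.89 in Colo205, so it was lower on both resistant arrays (-0.34 and -0.91).

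The OAS genes make or resemble the enzyme that activates RNase L. OAS1 (0.01 and -0.12), OAS2 (-0.03 and 0.26) and OAS3 (0.09 and -0.32), neighbours on chromosome 12, had differences in HT29 that depended on the probe set. The sign of OAS1 in HT29 turned with array centring, and those of OAS1 and OAS3 turned with the median of the probe sets. The other probe sets of OAS2, about as bright as the one used, gave -0.48 and -0.58 in HT29 and -0.01 and 0.13 in Colo205. OAS2 read below the filter value on 3 arrays and passed only through resistant Colo205. The other OAS3 probe set, at lower readings, had the opposite sign in both lines (-0.26 and 0.31). The other 729 genes of chromosome 12 had a median of -0.25 in Colo205. OASL, a homologue without the enzyme activity, read 7.26 and 8.80 in HT29 and 8.21 and 8.70 in Colo205. It was 2.90-fold higher in resistant HT29, against the direction of most of the set there, and its other probe set gave 0.73.

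Of the remaining antiviral effectors, CMPK2, a mitochondrial nucleotide kinase, read 6.62 and 5.18 in HT29 and 6.99 and 7.13 in Colo205. It was 2.70-fold lower in resistant HT29, at a resistant reading below the filter value, and its Colo205 difference was 0.15. Its neighbour on chromosome 2, RSAD2, which encodes viperin, stayed below the filter value. SAMD9, a growth-restricting antiviral factor, read 9.12 and 10.14 in HT29 and 8.39 and 8.85 in Colo205. It was 2.03-fold higher in resistant HT29, and its other probe set gave 0.84. SAMD9L, its neighbour on chromosome 7, read 5.21 and 4.76 in HT29 and 7.78 and 8.09 in Colo205, or -0.44 and 0.30. The other, dimmer probe sets of SAMD9L gave 0.11 and 0.03 in HT29 and 0.35 and 1.77 in Colo205. Its sign in HT29 and its size in Colo205 thus depend on the probe set. ISG20, an exonuclease, was higher in both derivatives, by 0.80 and 0.38. Its other probe set, about as bright, gave 1.05 and 0.36. Whether ISG20 counts as 2-fold higher in resistant HT29 thus depends on the probe set. PLSCR1, a phospholipid scramblase, had -0.20 and 0.42.

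IFITM1, IFITM2 and IFITM3 block the entry of enveloped viruses and BST2 tethers budding particles. IFITM3 read 9.74 and 9.30 in HT29 and 10.57 and 9.61 in Colo205, and IFITM2 had differences of -0.46 and -0.74. IFITM1 (-0.08 and 0.16) and BST2 (-0.38 and -0.07) differed less. The 3 IFITM genes lie side by side on chromosome 11 and resemble each other, so that a probe set of one may also detect another. IFI6, a survival factor at the endoplasmic reticulum and mitochondria, read 9.82 and 8.95 in HT29 and 9.73 and 9.13 in Colo205, lower on the resistant array in both lines (-0.87 and -0.60). XAF1, a pro-apoptotic gene, had -0.36 and -0.74 by its brightest probe set, which read below the filter value in HT29. Another, nearly as bright, gave 0.05 and -0.59, and a dim one gave 0.11 and 0.13. The sign of XAF1 in HT29 thus depends on the probe set. PARP9 (-0.30 and 0.26) and DTX3L (-0.44 and 0.13), which encode a pair of partner proteins from neighbouring genes, had opposite signs in the lines, although the other PARP9 probe set gave 0.05 in HT29. IFI35 (-0.07 and -0.21), SP100 (0.11 and 0.09) and EPSTI1 (0.38 and -0.40) complete the set. The dimmer probe sets of SP100 all had larger HT29 differences than the one used: 0.39, 0.998, 0.51, 0.62 and 0.30. For Colo205 they gave, in the same order, 0.29, 0.21, 0.02, -0.17 and 0.10. The size of the SP100 difference in HT29 thus depends on the probe set. The negative Colo205 value came from a probe set below the filter value on all arrays.

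**Figure D3:**
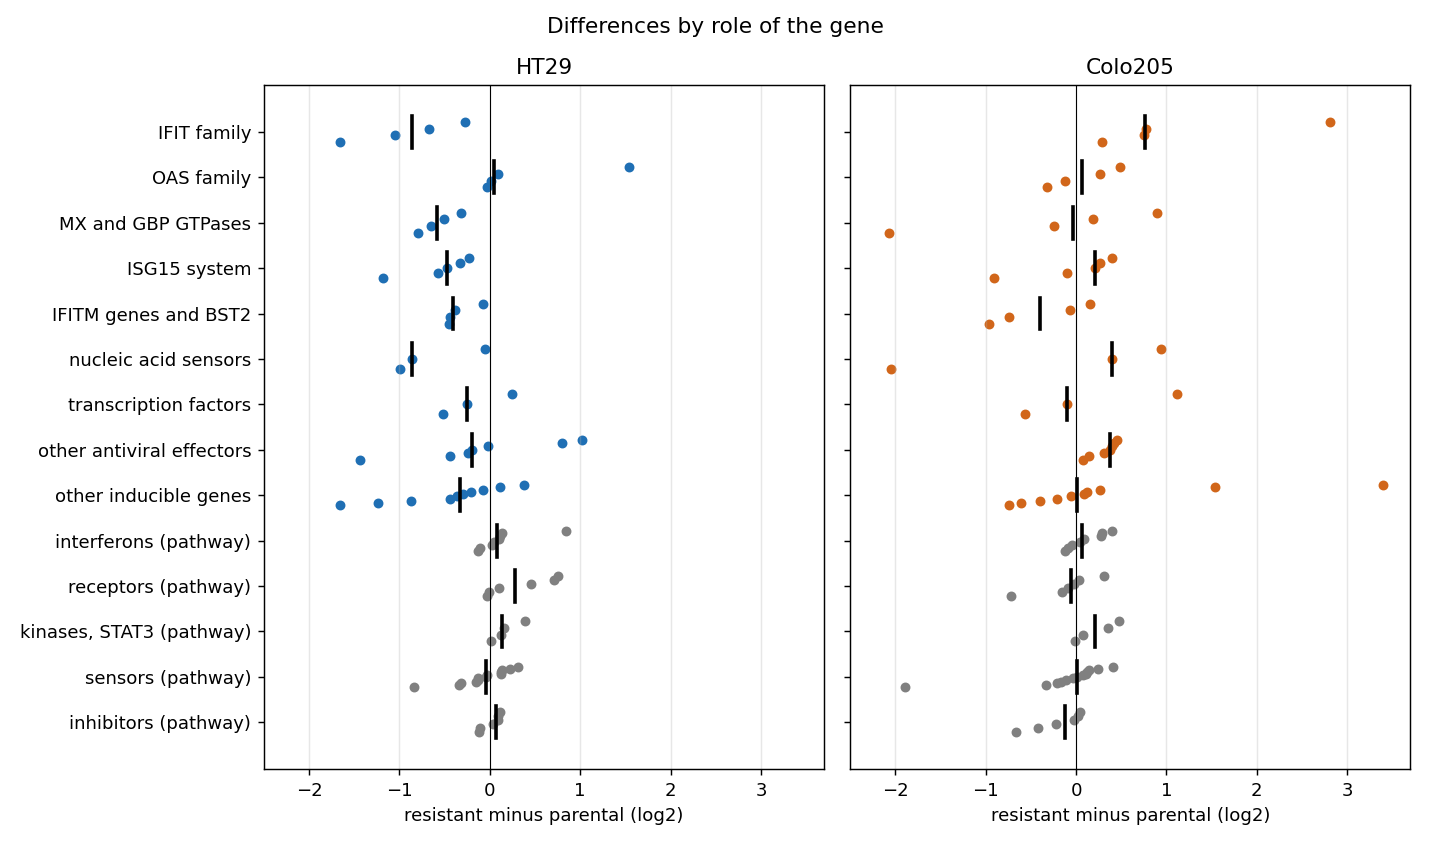
Resistant minus parental difference (horizontal axis, log2) in HT29 on the left and Colo205 on the right, by role of the gene. Coloured points are the 44 interferon-stimulated genes, grey points other genes of the pathway, and black bars the median of each group. The IFIT family has a median of -0.86 in HT29 and 0.77 in Colo205, while the IFITM genes with BST2 lie below 0 in the median in both lines.

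A comparison of the lines in each state shows the same measurements from the other side, since it uses the same arrays. Between the parents, 5 of the 40 genes were 2-fold or more higher in HT29 (12.5%, against 7.08% of all genes) and 9 were 2-fold or more lower (22.5%, against 11.6%). Between the resistant derivatives, 1 was higher in HT29 (2.5%, against 9.24%) and 18 were lower (45%, against 10.4%). The 5 higher in the HT29 parent were IFI27, IFI44, IFIT1, IFITM1 and ISG15, and the 1 higher in the HT29 derivative was SAMD9. Of those 5, IFI44, IFIT1 and IFITM1 read below the filter value in the Colo205 parent. Of the 9 lower ones, EPSTI1, GBP1, IFI16, SAMD9L and XAF1 read below it in the HT29 parent. Between the derivatives, CMPK2, EPSTI1, HERC6, IFIT1, SAMD9L and XAF1 read below it in HT29. All these genes passed the filter only through other arrays, so the size of their differences is not exact. IFIT1 went from 2.56 higher in parental HT29 than in parental Colo205 to 1.90 lower in the derivative (-1.90). For DDX60 the HT29 value minus the Colo205 value went from -0.75 to -2.67, for IFIT3 from -0.33 to -2.14 and for CMPK2 from -0.37 to -1.95. The lines were nearer each other in the resistant state for 17 of the 40 genes (42.5%, against 49.2% of all genes).

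**Figure D4:**
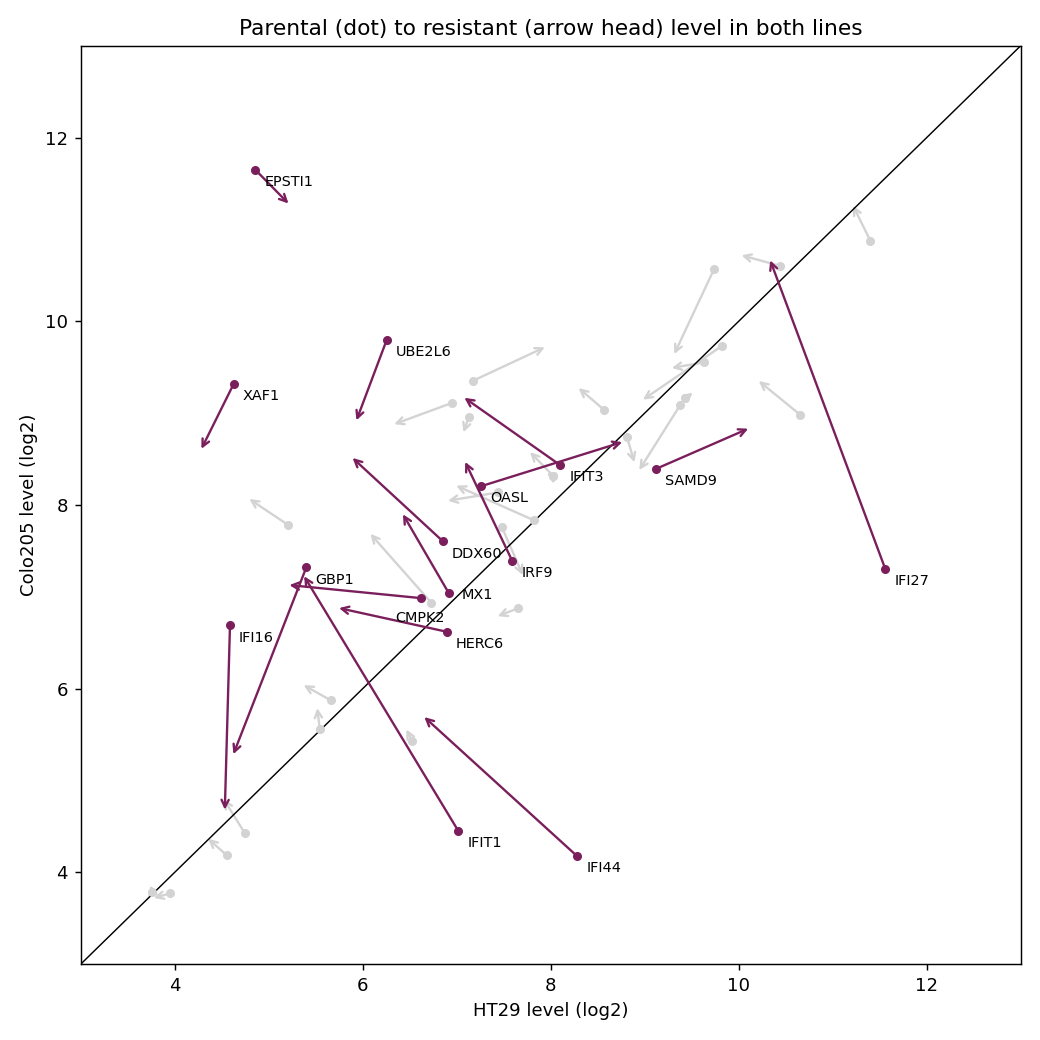
Each arrow runs from the parental to the resistant level of 1 gene, with its HT29 level on the horizontal axis and its Colo205 level on the vertical axis (log2). The diagonal marks equal levels in both lines. Purple arrows carry the names of genes described in the text and grey arrows are the others. The arrows of IFIT1, IFI27 and IFI44 start below the diagonal and point up and to the left, those of IFIT1 and IFI27 across it. GBP1 and IFI16 point down.

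Across both lines, limma with the cell line as a block tested whether resistant arrays differed from parental ones, over all 13651 genes. The fit has 1 residual degree of freedom, so its p-values rest on the spread between the differences of the 2 lines, combined with that of all genes. None of the set passed the adjusted threshold of 0.05 (0 of 40, and 0% of all genes), and 8 had an unadjusted p under 0.05 (20%, against 6.8%). Of these, ISG20, OASL and SAMD9 were higher and GBP1, IFI6, IFITM2, IFITM3 and XAF1 were lower. These are genes with the same sign in both lines by the probe sets used. For XAF1 the sign in HT29 depended on the probe set, and it read below the filter value on both HT29 arrays. It passed the filter only through Colo205. GBP1 had a mean difference of -1.43 with a 95% interval from -2.52 to -0.34 and an adjusted p = 0.706 in limma. OASL had a mean of 1.01 with an interval from 0.09 to 1.94 and the same adjusted p. GBP1 read below the filter value on 3 arrays and passed only through its Colo205 parental reading of 7.32. The filter and the test thus used the same high reading, and the size of the GBP1 difference is not exact. For IFIT1 the interval ran from -2.93 to 4.07 and for IFI27 from -2.55 to 4.72, since the lines differed in sign. A test of the difference between the lines' own differences would use all 4 arrays and leave no residual degree of freedom, so it was not made.

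The same limma fit gave the difference between the lines over both states. Of the 40 genes 8 passed the adjusted threshold (20%, against 15.2% of all genes). Lower in HT29 than in Colo205 were EPSTI1, a gene of stromal interaction and interferon response, by 6.41 with adjusted p = 0.00774 in limma, and XAF1, UBE2L6, SAMD9L, GBP2, ISG20 and IFI35. IFITM1 was higher in HT29 by 0.97 (interval from 0.50 to 1.45, adjusted p = 0.0432 in limma). EPSTI1 read 4.86 and 5.24 in the HT29 pair and 11.65 and 11.26 in the Colo205 pair, so HT29 lay below the filter value on both arrays. XAF1 read 4.63 and 4.27 in HT29 and 9.32 and 8.58 in Colo205. In all, 4 of these 8 genes, EPSTI1, XAF1, SAMD9L and IFITM1, read below that value on both arrays of the line where they were lower. For IFITM1 that line was Colo205, at 5.43 and 5.59. These genes passed the filter only through the line where they were higher. The filter and the test thus used the same readings, and the size of these differences is not exact. IFI27, whose lines moved in opposite directions, did not pass (interval from -1.69 to 5.58, adjusted p = 0.358 in limma).

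Of 39 listed ligands, receptors, kinases, sensors and inhibitors upstream in the pathway 37 were measured, and the other two were not analysed here. Past the filter were 27, of which 0 were 2-fold or more apart in HT29 (0%, against 5.14% of all genes) and 1 in Colo205 (3.7%, against 3.42%), shares that at this number of genes lie near those of all genes. That gene was TLR3, an endosomal sensor of double-stranded RNA, which read 4.80 and 3.96 in HT29 and 6.63 and 4.73 in Colo205. TLR3 lay below the filter value on 3 arrays and passed only through the Colo205 parental reading, so the size of its difference is not exact. In limma 0 of the 27 passed the adjusted threshold for the resistant state and 1, TLR3, had an unadjusted p under 0.05 (3.7%, against 6.8%). All 8 measured interferon genes lay below the filter value on every array, at readings from 2.98 to 5.13, so these arrays do not show which interferon, if any, the cells made. IFNAR1, a chain of the type I receptor, had differences of -0.01 and -0.09, and its partner IFNAR2 had 0.75 and -0.16. IFNGR1 (0.71 and 0.03) and IFNGR2 (0.46 and -0.72) make up the gamma receptor. IFNLR1 (0.10 and -0.03) and IL10RB (-0.03 and 0.30) make up the type III receptor. Of the kinases, JAK1 had 0.39 and -0.01, JAK2 0.16 and 0.47, and TYK2 0.01 and 0.08. Some of these values depend on the probe set. In HT29 the probe sets of IFNAR1 ranged from -0.02 to 0.73 and those of IFNGR1 from 0.02 to 0.91. In Colo205 those of JAK1 ranged from -0.47 to 0.18 and those of JAK2 from -0.62 to 0.47, so neither sign is settled there. JAK2 also read below the filter value on both HT29 arrays. Between the lines, 4 of the 27 passed in limma (14.8%, against 15.2% of all genes), with IL10RB lower in HT29 by 2.14 (adjusted p = 0.0158), JAK1 by 1.64 (0.0237), MAVS by 1.20 (0.0288) and IFNAR1 by 1.15 (0.0296).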

How the data were processed

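RNA from 4 cultures, 1 for each line and state, was hybridised to Affymetrix arrays as biotinylated cRNA, per the labels. The authors deposited log2 expression values for 54675 probe sets. That scale was inferred from continuous values between 2.51 and 14.88. MAS5 and RMA are listed in the submitters' processing notes with no role or version, and the background correction was not stated in the sources read.

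Of the probe sets 41091 named 1 gene in the platform annotation supplied with the table, and 41037 of these had their gene identifier in the RefSeq table of GRCh38.p14. That table served for gene order, and the promoter table for sequences. The brightest probe set on average stood for each gene, and genes whose highest value lay below the table median (5.73) were left out. Differences within a line are resistant minus parental log2 values and were counted at 2-fold without a test. State and line were tested with limma 3.58.1 in R 4.3.3 in 1 additive fit over all genes kept, with Benjamini-Hochberg adjustment. The prior carried 2.54 degrees of freedom and the gene's own spread 1. The fit was tested on simulated data. The line pairs each derivative with its parent, per the labels. The labels do not say whether cultures were independent. Scatter between probe sets was pooled over 6615 genes.

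All members are accounted for, and those past 2-fold in either line are given on every array. The members, pathway list, markers and motifs were chosen with earlier results of these data known. Alternatives were the probe set rule, array centring, quantile normalisation, the filter, the fold, the variance model and the block.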

Additional observations from a re-analysis of the deposited data

Results flagged for a closer look

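For 5 genes that differed 2-fold or more in at least 1 line, the resistant minus parental difference had opposite signs in HT29 and Colo205 and exceeded the scatter between probe sets (SD 0.30) in both. That contrast between the lines has no test, since 1 array stands for each line and state. IFIT1 was at -1.66 in HT29 and 2.80 in Colo205. IFI27 was at -1.24 and 3.40. IFI44 was at -1.65 and 1.54, with a dim second probe set at -0.64 and -0.22. IFIT3 was at -1.05 and 0.76, with both of its probe sets showing the same signs. IRF9 was at -0.52 and 1.12 by its 1 probe set.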

How the results depend on the processing

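Array number limits every value here, since 1 array stands for each line and state and readings near background have no exact size. At 1.5-fold the counts rose by construction, to 12 genes lower (30%, against 6.89% of all genes) and 3 higher (7.5%, against 8.1%) in HT29. In Colo205, 7 were lower (17.5%, against 7.78%) and 8 higher (20%, against 2.99%) at 1.5-fold, and 6 had the direction of IFIT1 in each line, as did 0.293% of all genes. Requiring the lowest reading to pass the filter left 28 of the set. It gave 2 lower and 2 higher in HT29 and 0 lower and 2 higher in Colo205, with the shares given above. It also gave 1 opposite at 2-fold and 12 opposite by sign, with 2 higher and 4 lower in the HT29 than in the Colo205 parent. The shares over all genes were not computed for these last counts. The median over probe sets and array centring each left 1 gene 2-fold higher in HT29. These shares were 2.7%, against 2.72% of all genes, and 2.5%, against 3.16%. Without the replicate block, limma gave an unadjusted p under 0.05 to 1 of the 40 genes of the set and 131 of all 13651. The other counts and medians stayed within 1.5 times or within the probe set scatter. Of 116 single-gene values that stayed past the filter under these alternatives, 110 moved by less than that scatter and 6 by more. The 110 include 22 values without the filter and 10 with the lowest reading past it, which could not move. Array centring shifts all genes of an array alike, by medians at most 0.049 apart, so its 22 values could hardly move. With the median over probe sets, 5 moved by more than the scatter and 15 did not. Among the 116 values no sign turned where the difference was 2-fold or more. The 6 were OASL in HT29 (1.14), IFI16 in both lines and IFI44 in HT29 (-1.15) and Colo205 (0.66) with the median over probe sets, and GBP1 in HT29 with probe sets specific by name. A gene that fell below the filter under an alternative left this tally. HERC6 did so with the median over probe sets, and IFI44 with probe sets specific by name. The specific probe set of IFI44, at low readings, gave -0.22 in Colo205, where the one used gave 1.54.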

Other observations

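The other two genes of the 5 that read 2-fold or more lower in HT29RC and higher in Colo205RC are not known as interferon targets and were named after their values were seen. IQGAP2, a scaffold protein that binds actin and calmodulin, read 9.92 in the HT29 parent and 8.06 in its derivative, against 5.14 and 6.91 for Colo205. Like IFIT1, IFI27 and IFI44, IQGAP2 was higher in the HT29 parent than in the Colo205 parent. PER3, a circadian clock gene, read 7.37 and 5.08 in HT29 and 8.34 and 9.36 in Colo205, and was lower in the HT29 parent.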
